A study of Rattus norvegicus with 120 samples.

Results

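The change that status epilepticus (SE) left in the hippocampal miRNAs of adult rats was compared between the acute stage, 24 hours after SE, and the latent stage, 1 week after SE. For each miRNA the stage difference is the latent change (SE against control, log2) minus the acute change, so that a positive value means that the miRNA was higher relative to its controls at 1 week than at 24 hours. The comparison covered 38 of the 75 acute and latent libraries with counts, of 120 labelled in the series. It covered 380 of the 608 miRNAs listed at both stages, namely those with over 500 reads summed over all libraries of each stage, infancy-onset rats included. The 3 miRNAs just inside that minimum held 506, 512 and 522 acute reads (miR-128-2-5p, miR-544-3p and miR-92b-5p), and the 3 just outside held 486, 473 and 459 (miR-33-3p, miR-1306-5p and miR-3072). The 380 miRNAs took 99.94% of the acute and 99.96% of the latent miRNA reads. With the adult-onset libraries alone, 333 miRNAs held over 500 reads at each stage. Among the called miRNAs, miR-15b-3p, miR-17-1-3p, miR-19a-3p, miR-181a-2-3p and miR-448-5p were then left out.

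All rats were male Wistar rats that received LiCl beforehand, controls included. SE rats were then given the muscarinic agonist pilocarpine at postnatal day 60 (P60), which sets off long-lasting seizures, and paraldehyde once convulsive SE had lasted some time, whereas controls were given saline. The treatment is known from the study's methods, which name the animals of its chronic stage. The groups were 9 acute SE libraries, 9 acute controls, 10 latent SE libraries and 10 latent controls, each from total RNA of hippocampal tissue. The labels do not state that each library is a separate rat, and p values measure the spread between these libraries. The acute and latent counts stand in separate tables, and a difference in level between the stages cannot be told apart from a difference between preparations. Only changes against controls of the same stage are compared below.

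miRNAs are short RNAs that pair with messenger RNAs, mainly through bases 2 to 8 of the miRNA, called the seed, and lower the output of those messengers. In the hippocampus, SE is followed within hours by strong neuronal activity, loss of vulnerable neurons and activation of glia, and over the next days by a latent period in which spontaneous seizures are still to come. Known miRNA responses include the activity-driven miR-132/miR-212 cluster and the inflammatory miR-155, miR-146a and miR-21. Tissue is bulk hippocampus, in which fewer cells of a type and less miRNA per cell cannot be told apart.

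The 3 miRNAs with a called stage difference and the relatives that bear on them are printed here from RefSeq (build GRCr8), 5′ to 3′, with the seed in capitals. miR-15b-5p is shown with the 4 other tested miRNAs that carry its seed, since it was the only 1 of the 5 with a positive stage difference. miR-135a-3p is shown with the opposite arm of its hairpin, and miR-146a-5p with miR-146b-5p, because in each pair the stage differences had opposite signs.
miR-15b-5p: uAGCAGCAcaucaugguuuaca
miR-16-5p: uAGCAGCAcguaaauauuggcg
miR-195-5p: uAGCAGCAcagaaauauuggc
miR-322-5p: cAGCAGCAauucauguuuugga
miR-497-5p: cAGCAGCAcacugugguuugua
miR-135a-3p: uGUAGGGAuggaagccaugaaa
miR-135a-5p: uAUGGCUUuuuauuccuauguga
miR-134-5p: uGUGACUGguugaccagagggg
miR-146a-5p: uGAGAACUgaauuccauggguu
miR-146b-5p: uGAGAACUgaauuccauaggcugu
In that build miR-15b-5p lies at chr2:155555197-155555218 on the plus strand, with miR-16-5p starting 146 bases further on. miR-135a-3p lies at chr7:28499183-28499204 on the minus strand, and miR-134-5p at chr6:134570320-134570341 on the plus strand, within the imprinted miR-379/miR-410 cluster. Of the 380 miRNAs, 352 had a mature sequence in RefSeq, and 103 of them shared a seed with at least 1 other.

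Libraries held from 434419 to 1408898 miRNA reads in acute SE rats (median 562003), from 507283 to 4026890 in acute controls (median 1838745), from 1707073 to 5663564 in latent SE rats (median 2661344) and from 450644 to 8165312 in latent controls (median 3012338). The 6 acute libraries numbered 1 to 8 in the labels, 5 SE and 1 control, were the shallowest acute ones (434419 to 562003 reads), so that SE and depth were partly confounded at 24 hours, and results are also given within the 12 acute libraries numbered 9 to 20 (4 SE, 8 controls). The brain miRNAs miR-9a-5p (lowest 93634 CPM, reads scaled to a common library total with TMM factors), miR-124-3p (9663), miR-128-3p (26343) and miR-138-5p (2379) were abundant in all 38 libraries, whereas the muscle miRNAs miR-1-3p and miR-206-3p did not exceed 21.3 and 24.2 CPM, miR-133a-3p did not exceed 127.9 CPM, the endocrine miR-375-3p reached 883 CPM in 1 latent SE library, and the liver miR-122-5p was not among the miRNAs tested.

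Before any result, 3 libraries went against their labels in miR-155-5p and, to differing extents, in other called miRNAs. The acute library 1, labelled SE, held 3.44 CPM of miR-155-5p against 62.8 to 179 in the other acute SE libraries. The acute library 8, labelled control, held 93.6 CPM against 3.44 to 7.78 in the other acute controls. The latent library 1, labelled SE, held 7.02 CPM against 35.5 to 123 in the other latent SE libraries and 4.12 to 16.02 in latent controls. Of the 15 miRNAs called higher at 24 hours, acute library 8 lay above all other acute controls in 12, and acute library 1 lay below all other acute SE libraries in 8. Acute library 8 was nearer the SE median in 13 of the 15, but acute library 1 was nearer the control median in only 6. Of the 32 called higher at 1 week, latent library 1 lay below all other latent SE libraries in 16 and was nearer the control median in 29. Of the 3 called lower at 24 hours, acute library 8 was nearer the other arm's median in 2 and acute library 1 in 0. Of the 5 called lower at 1 week, latent library 1 was nearer the control median in 2. These libraries were kept under their labels, and the results they moved most are given with and without them. They were picked from these same values, so leaving them out tends to enlarge the changes of such miRNAs by selection. For those miRNAs the adjusted p values without the 3 libraries are no separate test.

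**Figure D1:**
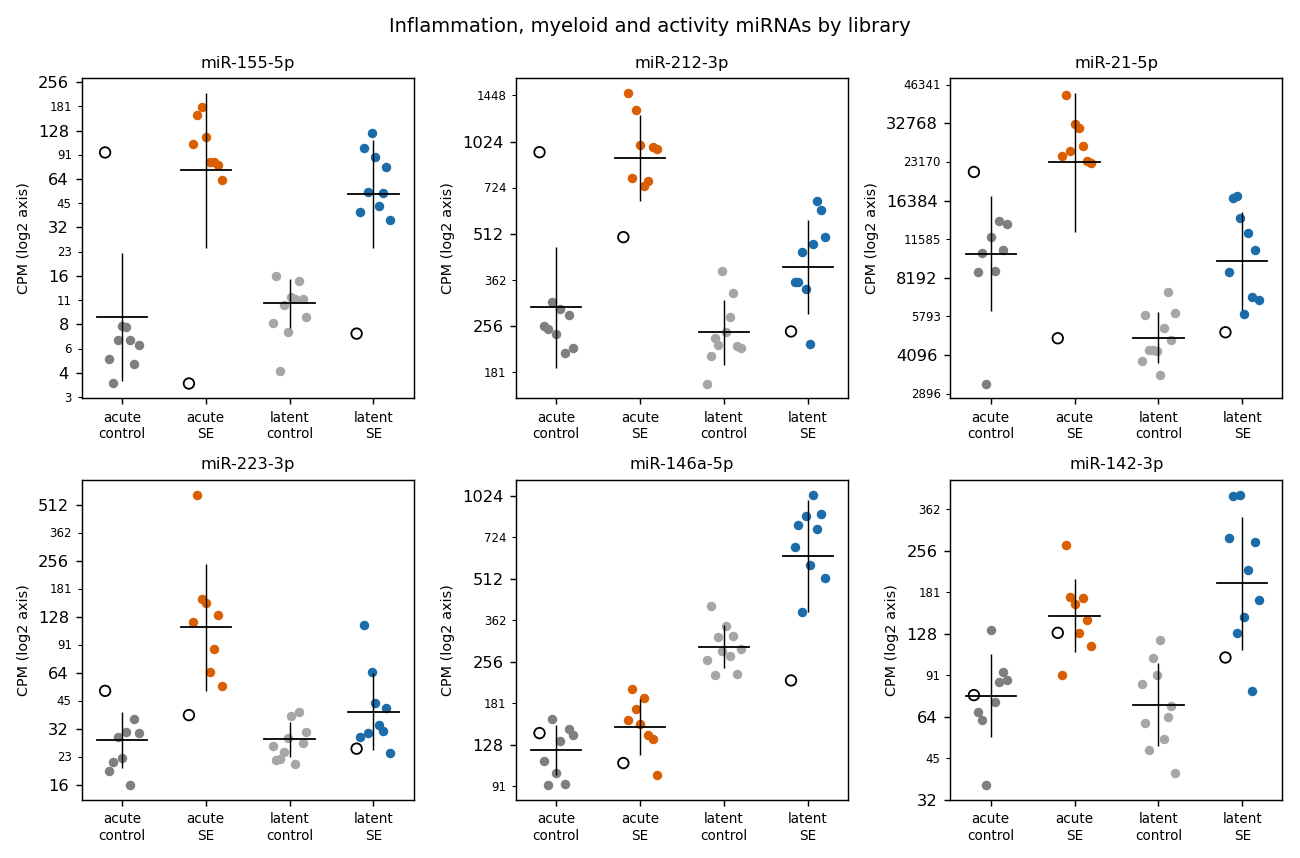
Normalised abundance (CPM, log2 axis) of 6 miRNAs in each of the 38 libraries, by group, with the mean and SD of log2 CPM as bars; open circles are the acute libraries 1 (labelled SE) and 8 (labelled control) and the latent library 1 (labelled SE). For miR-155-5p each open circle lies with the other arm of its stage.

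Few miRNAs passed the test of the stage difference itself. Of 380 miRNAs, 3 (0.789%) had a called stage difference, 2 of them positive (0.526%) and 1 negative (0.263%), by edgeR's quasi-likelihood test at an adjusted p under 0.05. At an unadjusted p under 0.05, 23 were positive (6.05%) and 48 negative (12.6%). This excess of negative values was not kept in every setting. With TMM factors computed within each stage, 34 were positive and 29 negative. Without the filter on low counts (608 miRNAs) the counts were 59 and 30, and with DESeq2 26 and 45. At 24 hours 18 miRNAs were changed (4.74%), 15 higher (3.95%) and 3 lower (0.789%), with 59 higher (15.5%) and 21 lower (5.53%) at an unadjusted p under 0.05. These unadjusted acute counts were 44 and 39 with TMM factors within each stage, 50 and 61 without the filter, and 52 and 33 with DESeq2. At 1 week 37 were changed (9.74%), 32 higher (8.42%) and 5 lower (1.32%), with 54 higher (14.2%) and 24 lower (6.32%) at an unadjusted p. The median of all stage differences was -0.05, with quartiles at -0.35 and 0.21 on the log2 scale, and the median standard error was 0.25. Without the 3 libraries that went against their labels, 16 miRNAs had a called stage difference, 8 in each direction, and these included the 3 above. With acute libraries 9 to 20 only, edgeR called none (16 positive and 15 negative at an unadjusted p under 0.05), and without the latent library 1 as well 4 were, all positive.

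**Figure D2:**
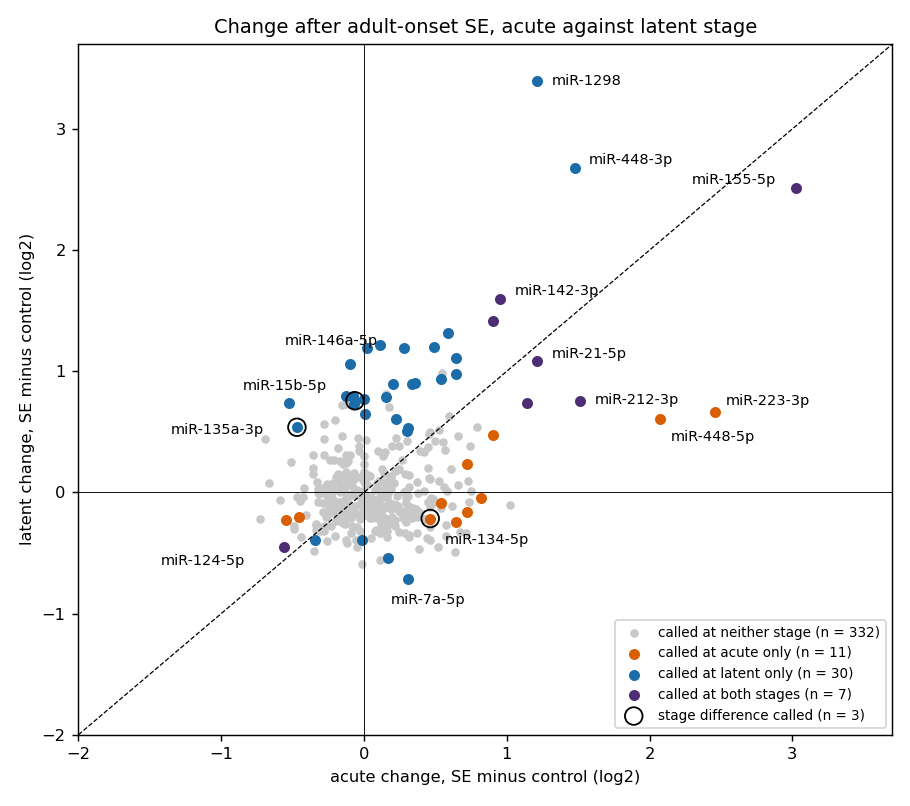
Acute change (x axis, log2, SE minus control) against latent change (y axis, log2) of the 380 miRNAs, coloured by the stage at which they were called, with circles round the 3 called stage differences and a dashed line of equal change. miR-155-5p and miR-21-5p lie near the line, miR-223-3p below it, and miR-15b-5p above it.

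miR-15b-5p, which belongs to a family known to restrain cell cycle genes, was changed at 1 week and not detectably at 24 hours. Acute SE libraries ranged from 182 to 260 CPM (median 220) and acute controls from 199 to 279 (median 222). Latent SE libraries ranged from 124 to 326 CPM (median 209) and latent controls from 97.9 to 171 (median 125). The acute groups overlapped, while 7 of 10 latent SE libraries exceeded every latent control and the other 3, labelled latent SE 1, 2 and 6, lay within the control range. The acute change was -0.06 (standard error 0.14, log2), the latent change 0.76 (standard error 0.13, adjusted p = 8.46e-05), and the stage difference 0.82 (95% interval 0.43 to 1.205, adjusted p = 0.0343). It was 0.91 without the 3 libraries (adjusted p = 0.00877) and 0.92 within acute libraries 9 to 20 (adjusted p = 0.11, or 0.0283 at a difference of 0.98 without the latent library 1 as well). A difference between 0.73 and 0.92 was obtained when any single library was left out, and in 5 of these fits (without acute control 14, 17 or 19, latent control 12 or latent SE 19) it was no longer called. Of 14 other fits (other tools, filters, scalings and library sets), 12 kept the call. It ended after thinning to the shallowest library and within acute libraries 9 to 20.

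None of the seed-mates of miR-15b-5p was called at either stage or by stage difference; they and the other arm of its hairpin were named after their values were seen. miR-16-5p, from the same precursor cluster, had an acute change of 0.27, a latent change of 0.26 and a stage difference of -0.01 (95% interval -0.47 to 0.45). The stage differences of miR-195-5p, miR-322-5p and miR-497-5p were -0.38, -0.30 and -0.04, each with an interval that included 0. The other arm, miR-15b-3p, had an acute change of -0.13, a latent change of 0.80 (adjusted p = 0.0433) and a stage difference of 0.92 (adjusted p = 0.21), at 1.38 to 13.2 CPM. The latent call of miR-15b-3p ended in 11 of the fits without a single library, and 7 of 13 other fits kept it.

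**Figure D3:**
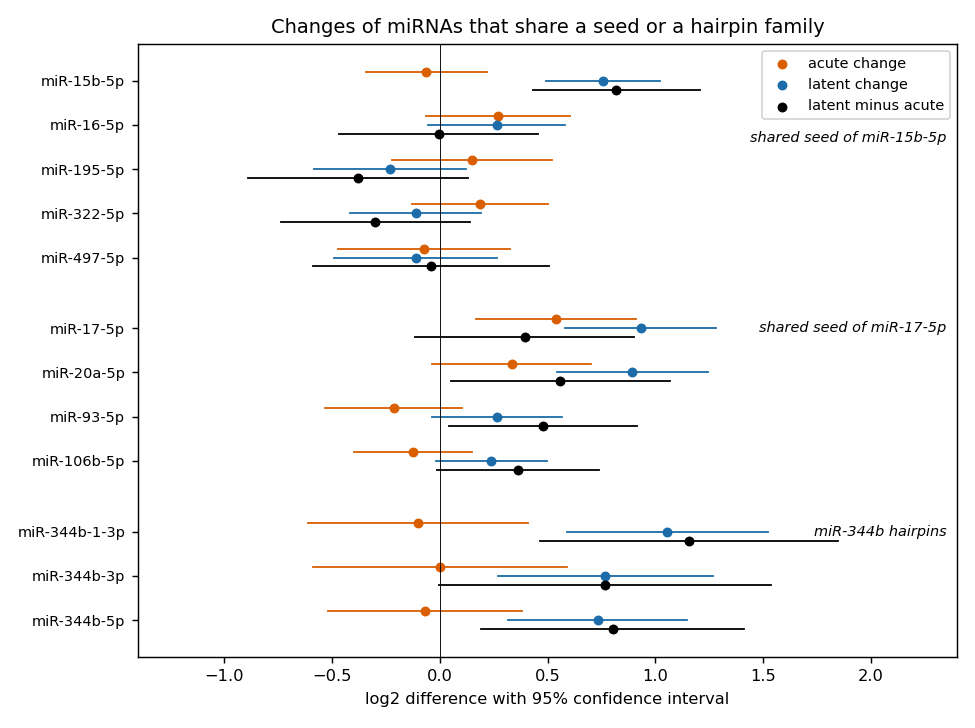
Acute change, latent change and stage difference (log2, points) with 95% confidence intervals (lines) for 5 miRNAs with the seed of miR-15b-5p, 4 with the seed of miR-17-5p and 3 from miR-344b hairpins. Only miR-15b-5p of the first group has a stage difference whose interval lies above 0.

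miR-135a-3p, the less studied arm of the miR-135a hairpin, was the second positive call. Acute SE libraries ranged from 10.0 to 25.8 CPM (median 14.3) and acute controls from 15.5 to 25.2 (median 21.6). Latent SE libraries ranged from 47.5 to 124 CPM (median 77.4) and latent controls from 33.7 to 71.3 (median 51.8). At 24 hours 5 of 9 SE libraries lay below every control, and the highest value of the SE group was that of the library labelled acute SE 1. At 1 week 6 of 10 SE libraries lay above every control. The acute change was -0.47 (standard error 0.20, adjusted p = 0.165), the latent change 0.54 (standard error 0.16, adjusted p = 0.021) and the stage difference 1.01 (95% interval 0.50 to 1.51, adjusted p = 0.0343). These acute values rested on 5 to 21 reads per SE library and 14 to 90 per control. Without the 3 libraries the difference was 1.18 (adjusted p = 0.00877), and within acute libraries 9 to 20 it was 1.13 (adjusted p = 0.11, or 0.0283 at a difference of 1.18 without the latent library 1 as well). It ran from 0.91 to 1.21 when single libraries were left out, and it was no longer called without acute control 14, 17 or 19, acute SE 2, latent control 10 or 12, or latent SE 19. Of the 14 other fits, 11 kept the called stage difference. It ended after thinning, within acute libraries 9 to 20, and without acute SE 6 and latent SE 5 and 6. The latent call ended without latent SE 3 or 5.

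The abundant arm, miR-135a-5p, was called at neither stage. It lay between 979.6 and 5509 CPM at 24 hours and between 419.7 and 1495 CPM at 1 week, with an acute change of 0.46, a latent change of 0.11 and a stage difference of -0.35 (95% interval -1.05 to 0.35). The near-identical miR-135b-5p, whose reads are those the authors assigned to it, had 0.64, -0.49 and -1.13 (adjusted p = 0.21).

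miR-134-5p, a brain miRNA of the miR-379/miR-410 cluster known to limit dendritic spine growth and to be raised by seizures, was the negative call. Acute SE libraries ranged from 341 to 568 CPM (median 391) and acute controls from 240 to 434 (median 282). Latent SE libraries ranged from 152 to 230 CPM (median 174) and latent controls from 158 to 281 (median 215). Every acute SE library exceeded the control median, and the highest acute control, 434 CPM, was the library labelled control 8, with the other 8 controls at 240 to 308 CPM below all SE libraries. At 1 week 9 of 10 SE libraries lay at or below the control median, but the ranges overlapped. miR-134-5p rose at 24 hours by 0.46 (standard error 0.12, adjusted p = 0.0163), the latent change was -0.22 (standard error 0.12, adjusted p = 0.279), and the stage difference was -0.68 (95% interval -1.02 to -0.34, adjusted p = 0.0343). It was -0.72 without the 3 libraries (adjusted p = 0.0118) and -0.60 within acute libraries 9 to 20 (adjusted p = 0.11), and it lay between -0.76 and -0.57 when single libraries were left out. The call ended in 18 of those fits, namely without acute control 14, 15, 17, 18, 19 or 20, acute SE 1, 2, 4, 6 or 11, latent control 8, 10, 12, 13 or 16, or latent SE 17 or 19, and the acute call ended without acute control 20 or acute SE 2 or 4. Of the 14 other fits (other tools, filters, scalings and library sets), 5 kept the called stage difference. It ended, among others, with TMM factors within each stage, without the filter on low counts, with the stages fitted separately, after thinning and with limma-trend. The acute call was kept in 8 of the 14 and ended, among others, within acute libraries 9 to 20 (0.42, adjusted p = 0.213), after thinning, with TMM factors within each stage and with the stages fitted separately.

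**Figure D4:**
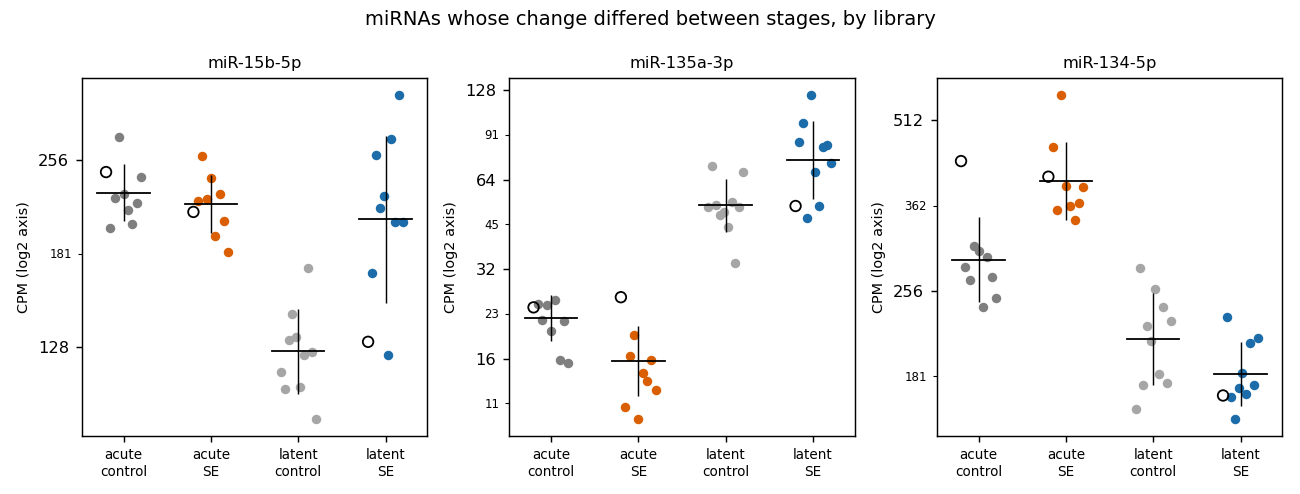
Normalised abundance (CPM, log2 axis) of the 3 miRNAs with a called stage difference in each library, by group, with the mean and SD of log2 CPM as bars and the 3 libraries that went against their labels as open circles. For miR-15b-5p 7 of 10 latent SE libraries lie above all latent controls, for miR-135a-3p 6 of 10 do, and for miR-134-5p all 9 acute SE libraries lie above the acute control median.

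A further 8 miRNAs shared the next adjusted p of 0.0562, and those outside the naming rule are given after their values were seen. The differences were positive for miR-146a-5p (0.91), miR-339-5p (0.88), miR-344b-1-3p (1.156) and miR-181a-2-3p (1.26), and negative for miR-223-3p (-1.79), miR-7a-5p (-1.03), miR-376b-3p (-0.89) and miR-667-3p (-0.89). All but miR-667-3p (adjusted p = 0.0592) were called without the 3 libraries.

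Some inflammatory miRNAs were called at both stages and others at a single stage, and with all libraries none had a called stage difference. miR-155-5p, which is induced in activated microglia and macrophages, rose at both stages. Acute SE libraries ranged from 3.44 to 179 CPM (median 81.7) and acute controls from 3.44 to 93.6 (median 6.42), each extreme on the wrong side being a library that went against its label. Latent SE libraries ranged from 7.02 to 123 CPM (median 52.8) and latent controls from 4.12 to 16.02 (median 11.04). It rose by 3.03 at 24 hours (standard error 0.53, adjusted p = 0.000114) and by 2.51 at 1 week (standard error 0.47, adjusted p = 0.000212), and the stage difference of -0.51 had an interval from -1.91 to 0.88. Without the 3 libraries, which were picked on the values of this miRNA, the changes were 4.14 and 2.65 and the stage difference was -1.50 (standard error 0.36, adjusted p = 0.0118). Within acute libraries 9 to 20 and without the library labelled latent SE 1 it was -1.01 (adjusted p = 0.274).

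miR-146a-5p, a target of NF-kB that feeds back on Toll-like receptor signalling, was changed at 1 week. Acute SE libraries ranged from 99.9 to 204 CPM (median 152) and acute controls from 91.4 to 159 (median 132). Latent SE libraries ranged from 219 to 1031 CPM (median 721) and latent controls from 229 to 406 (median 283). The acute groups overlapped, 8 of 10 latent SE libraries exceeded every latent control, and the lowest latent value belonged to the library labelled SE 1. The acute change was 0.28 (standard error 0.19, adjusted p = 0.404) and the latent change 1.19 (standard error 0.18, adjusted p = 2.22e-05). The stage difference of 0.91 (95% interval 0.38 to 1.44) missed the threshold and was 0.99 without the 3 libraries (adjusted p = 0.0118) and 1.123 within acute libraries 9 to 20 without the latent library 1 (adjusted p = 0.0283). miR-146b-5p, which has the same seed, had a stage difference of -0.26 (95% interval -0.68 to 0.15), with an acute change of -0.13 and a latent change of -0.39 (adjusted p = 0.0814).

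miR-223-3p, an abundant miRNA of neutrophils and other myeloid cells, was called at 24 hours alone. Acute SE libraries ranged from 37.8 to 580 CPM (median 120) and acute controls from 15.9 to 51.0 (median 28.7). Latent SE libraries ranged from 23.6 to 115 CPM (median 32.3) and latent controls from 20.5 to 39.04 (median 26.4). All acute SE libraries but the one labelled SE 1 exceeded every control, whereas 4 of 10 did at 1 week. It rose by 2.46 at 24 hours (standard error 0.36, adjusted p = 1.53e-05), the latent change was 0.66 (standard error 0.33, adjusted p = 0.244), and the stage difference of -1.79 (95% interval -2.77 to -0.81) missed the threshold. The difference was -1.91 without the 3 libraries (adjusted p = 0.0118) and -1.03 within acute libraries 9 to 20 (adjusted p = 0.393).

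Of the other inflammatory and myeloid miRNAs, 3 rose at both stages. miR-21-5p, induced in reactive glia, rose by 1.21 at 24 hours (adjusted p = 0.00387) and by 1.08 at 1 week (adjusted p = 0.00396), with a stage difference of -0.13 (95% interval -0.88 to 0.62). The acute library labelled SE 1 held 4761 CPM of it against 23010 to 42343 in the other acute SE libraries, and without the 3 libraries miR-21-5p rose by 1.49 and 1.17, with a stage difference of -0.32 (adjusted p = 0.55). The myeloid miR-142-3p rose by 0.95 (adjusted p = 0.0232) and 1.60 (adjusted p = 2.89e-05), and miR-142-5p by 0.91 (adjusted p = 0.0294) and 1.41 (adjusted p = 8.46e-05), with stage differences of 0.64 and 0.51 whose intervals included 0. Within acute libraries 9 to 20 the acute changes of miR-142-3p and miR-142-5p were 0.85 and 0.43 and were not called, and leaving out single libraries ended the acute call of miR-142-3p in 6 fits and that of miR-142-5p in 8. miR-150-5p, a lymphocyte miRNA, had 0.28 and -0.16. miR-221-3p fell at 24 hours by 0.55 (adjusted p = 0.0163) and had a latent change of -0.23, and within acute libraries 9 to 20 its acute change was -0.30 and not called (adjusted p = 0.85). Of the 11 tested of 16 listed miRNAs of inflammation and reactive glia, 3 were called higher and 1 lower at 24 hours and 3 higher at 1 week, against 15, 3 and 32 of all 380. None was called by stage difference, and 6 had a positive one (median 0.22), against 168 of all 380 (median -0.05). With acute libraries 9 to 20 alone, 5 of the 11 were positive (median -0.01), so the sign of the list median turned. Of the 4 tested myeloid and lymphoid miRNAs, 3 rose at 24 hours and 2 at 1 week, against 15 and 32 of all 380. Their summed level was 762 to 2196 CPM in acute SE (median 1048) and 695 to 1051 in acute controls (median 831). At 1 week it was 729 to 1146 CPM in SE (median 925) and 549 to 1055 in controls (median 707). The highest acute SE sum was that of the library labelled SE 1. In it miR-150-5p held 1962 CPM, against 520 to 847 in the other acute SE libraries.

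In total 7 miRNAs were called at both stages, each in the same direction, which is 38.9% of the acute and 18.9% of the latent calls. Of all 380, 4.74% were called at 24 hours and 9.74% at 1 week. Across the 380 miRNAs, 193 had changes of the same sign at both stages, with a Spearman rho of 0.135 and a Pearson r of 0.408. The 7 were miR-155-5p, miR-21-5p, miR-142-3p, miR-142-5p, both arms of miR-212 and miR-124-5p. The last, the passenger arm of the neuronal miR-124, fell by 0.56 at 24 hours (adjusted p = 0.0155) and by 0.45 at 1 week (adjusted p = 0.0257). The guide arm, miR-124-3p, had an acute change of 0.46 (adjusted p = 0.181), a latent change of -0.29 and a stage difference of -0.75 (adjusted p = 0.193). Within acute libraries 9 to 20 the acute change of miR-124-5p was -0.32 (adjusted p = 0.844), and its latent call ended in 11 of the fits without a single library.

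Activity-regulated miRNAs had a larger median change at 24 hours than at 1 week, and only miR-134-5p among them passed the test of the stage difference. The 11 tested of 12 listed had a median acute change of 0.72 against 0.05 for all 380, a median latent change of 0.02 against -0.04 and a median stage difference of -0.49 against -0.05. At 24 hours 5 were called higher and at 1 week 2, against 15 and 32 of all 380. The stage difference was negative for 10 of 11, against 212 of all 380. Of these, 5 were at an unadjusted p under 0.05, against 48 of all 380. miR-212-3p, made from one CREB-driven transcript with miR-132 and sharing its seed, ranged from 500 to 1475 CPM in acute SE (median 965) and from 210 to 946 in acute controls (median 256). In latent SE it ranged from 224 to 655 CPM (median 402) and in latent controls from 167 to 387 (median 229). The highest acute control was the library labelled control 8 and the lowest acute SE library the one labelled SE 1, and 5 of 10 latent SE libraries exceeded every control. It rose by 1.51 at 24 hours (standard error 0.24, adjusted p = 2.93e-05) and by 0.76 at 1 week (standard error 0.23, adjusted p = 0.0265), with a stage difference of -0.76 (95% interval -1.42 to -0.09, adjusted p = 0.21). Without the 3 libraries it rose by 1.94 and 0.83, and the stage difference of -1.10 was called (adjusted p = 0.0118). The latent call of miR-212-3p ended without latent SE 18 or 19. Within acute libraries 9 to 20 the difference was -0.99 (adjusted p = 0.11).

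The other members of the cluster also had the larger change at 24 hours, with no called stage difference. miR-212-5p rose by 1.14 and 0.74 (stage difference -0.40, adjusted p = 0.368). miR-132-3p rose by 0.90 at 24 hours (adjusted p = 0.00175) and had a latent change of 0.48 (adjusted p = 0.0911), and miR-132-5p rose by 0.72 at 24 hours (adjusted p = 0.00259) and had a latent change of 0.23. The acute library labelled control 8 held 5198 CPM of miR-132-3p against 1726 to 3041 in the other acute controls. Without the 3 libraries miR-132-3p rose at both stages, by 1.14 and 0.54 (adjusted p = 0.013 at 1 week), with a stage difference of -0.60 (adjusted p = 0.145). In the same fit miR-212-5p rose by 1.27 and 0.83, and miR-132-5p by 0.83 at 24 hours. miR-129-2-3p had an acute change of 0.72, a latent change of -0.34 and a stage difference of -1.05 (adjusted p = 0.174), and within acute libraries 9 to 20 that difference was -0.32. The median stage difference of the list was -0.60 without the 3 libraries and -0.32 within acute libraries 9 to 20. Its median acute change was 0.26 within acute libraries 9 to 20 and 0.36 after thinning to the shallowest library, against 0.72 with all libraries.

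The miR-379/miR-410 cluster, a large imprinted set of miRNAs of the Dlk1-Dio3 locus that is transcribed mainly in neurons, had mostly positive acute and negative latent changes. Of 53 tested of 67 listed members, 43 had a positive acute change, against 211 of all 380, and 46 a negative latent change, against 216. A negative stage difference was found in 43, against 212 of all 380. The median stage difference was -0.35 (range -0.89 to 0.33), and 16 members had a negative difference at an unadjusted p under 0.05 and none a positive one. Over all 380 miRNAs these counts were 48 and 23. At 24 hours 5 rose, namely miR-134-5p, miR-376b-3p (0.72, adjusted p = 0.0116), miR-667-3p (0.65, adjusted p = 0.0361), miR-377-3p (0.82, adjusted p = 0.00674) and miR-495 (0.54, adjusted p = 0.016), and at 1 week 2 fell, namely miR-154-5p (by 0.54, adjusted p = 0.0409) and miR-329-5p (by 0.39, adjusted p = 0.04). Over all 380 miRNAs, 15 were called higher at 24 hours and 5 lower at 1 week. Leaving out single libraries ended the acute call of miR-667-3p in 17 fits, and the latent calls of miR-154-5p in 21 and of miR-329-5p in 17. Of the 14 other fits, 3 kept the call of miR-667-3p, 4 that of miR-154-5p and 7 that of miR-329-5p. The acute call of miR-376b-3p ended without acute SE 1 or 4, and that of miR-495 without acute control 15 or acute SE 1, 2 or 4. With the stages fitted separately, edgeR called no member of the cluster at either stage.

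The summed level of the cluster was 22104 to 28563 CPM in acute SE (median 24414) and 20374 to 24735 in acute controls (median 22118). At 1 week it was 19664 to 25232 CPM in SE (median 22102) and 22512 to 27203 in controls (median 24672). The groups overlapped at both stages. The members share 1 locus and the same libraries, so their signs are not independent. The median stage difference was -0.33 without the 3 libraries, -0.30 with TMM factors computed within each stage and -0.21 within acute libraries 9 to 20, where miR-376b-3p, miR-667-3p, miR-377-3p and miR-495 had acute changes of 0.36, 0.08, 0.34 and 0.14. In those libraries no member was called at 24 hours, and 33 of 53 had a positive acute change. The Rtl1-antisense miRNAs of the same locus had a median stage difference of -0.22 over 18 members, 5 of them positive.

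Neuron-enriched miRNAs had negative stage differences in 12 of 14 cases, with a median of -0.42, and none passed the test. Over all 380 miRNAs, 212 were negative, with a median of -0.05. The median acute change of the neuron-enriched miRNAs was 0.14 and their median latent change -0.34, against 0.05 and -0.04 for all 380. miR-7a-5p, abundant in neurons, ranged from 10106 to 19864 CPM in acute SE (median 12299) and from 5764 to 13102 in acute controls (median 10734), and at 1 week from 6084 to 13684 in SE (median 10449) and from 3927 to 30432 in controls (median 16913). All 10 latent SE libraries lay below the control median, although latent control 14, at the lowest value, was below all of them. miR-7a-5p fell at 1 week by 0.72 (standard error 0.20, adjusted p = 0.0157), its acute change was 0.31 (adjusted p = 0.397), and its stage difference was -1.03 (95% interval -1.60 to -0.45). The near-identical miR-7b had a stage difference of -0.67 and a latent change of -0.56 (adjusted p = 0.0662). The latent call of miR-7a-5p ended without latent control 8 (-0.54, adjusted p = 0.07). The median stage difference of the list was -0.39 without the 3 libraries and -0.13 within acute libraries 9 to 20, where the median acute change was -0.06.

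The miR-17~92 cluster and its paralogs, linked to proliferation, had a positive stage difference in all 15 tested of 24 listed members, against 168 of all 380. The median was 0.48 (range 0.19 to 0.88), 6 were positive at an unadjusted p under 0.05, against 23 of all 380, and none was called. None was called at 24 hours, where the median change was 0.01, and 7 rose at 1 week, where it was 0.60, against 32 of all 380 called higher at 1 week. The median acute change was 0.25 within acute libraries 9 to 20, with 12 of 15 positive. miR-18a-5p ranged from 15.5 to 46.0 CPM in acute SE (median 24.8), from 9.88 to 32.3 in acute controls (median 16.9), from 23.3 to 83.6 in latent SE (median 48.0) and from 14.8 to 33.7 in latent controls (median 23.6). At 1 week 8 of 10 SE libraries exceeded every control, and at 24 hours 1 of 9. It rose at 1 week by 1.201 (standard error 0.21, adjusted p = 8.46e-05), after an acute change of 0.49 (adjusted p = 0.233), with a stage difference of 0.71 (95% interval 0.06 to 1.35, adjusted p = 0.21).

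The other members called at 1 week were miR-17-5p (0.93, adjusted p = 0.000212), miR-20a-5p (0.89, adjusted p = 0.000319), miR-19a-3p (1.11, adjusted p = 0.000778), miR-92a-3p (0.78, adjusted p = 0.00637), miR-19b-3p (0.60, adjusted p = 0.0157) and the low miR-17-1-3p (0.65, adjusted p = 0.0427), whose call ended in 13 of the fits without a single library. Within the seed of miR-17-5p, the cluster members miR-17-5p and miR-20a-5p had acute changes of 0.54 and 0.33, whereas miR-93-5p and miR-106b-5p of the paralogous cluster had -0.21 and -0.12. In that order the stage differences were 0.39, 0.56, 0.48 and 0.36, none of them called. All 15 members stayed positive without the 3 libraries (median 0.49) and within acute libraries 9 to 20 (median 0.35).

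The rodent-specific miR-344 cluster also had a positive stage difference in all 4 tested of 7 listed members (median 0.78), against 168 of all 380 (median -0.05). miR-344b-1-3p ranged from 34.5 to 75.8 CPM in acute SE (median 55.3) and from 30.4 to 132 in acute controls (median 52.6), and at 1 week from 63.1 to 257 in SE (median 152) and from 58.0 to 141 in controls (median 66.9). No acute SE library and 7 of 10 latent SE libraries exceeded every control. It rose at 1 week by 1.06 (standard error 0.23, adjusted p = 0.00134), miR-344b-3p by 0.77 (adjusted p = 0.04) and miR-344b-5p by 0.73 (adjusted p = 0.0167), while their acute changes were -0.10, -0.00026 and -0.07. The latent call of miR-344b-5p ended without latent SE 3, and that of miR-344b-3p in 9 of the fits without a single library. miR-344b-1-3p and miR-344b-3p are near-identical, so a read of one could have been counted for the other. Outside the lists, and named after their values were seen, miR-190b-5p and miR-339-5p were likewise called at 1 week alone. miR-190b-5p had an acute change of 0.02 and rose by 1.19 at 1 week (adjusted p = 0.000689), and miR-339-5p had -0.08 and rose by 0.80 (adjusted p = 0.0012). Their stage differences were 1.17 and 0.88, and 1.28 and 0.92 without the 3 libraries (adjusted p = 0.0262 and 0.0245).

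**Figure D5:**
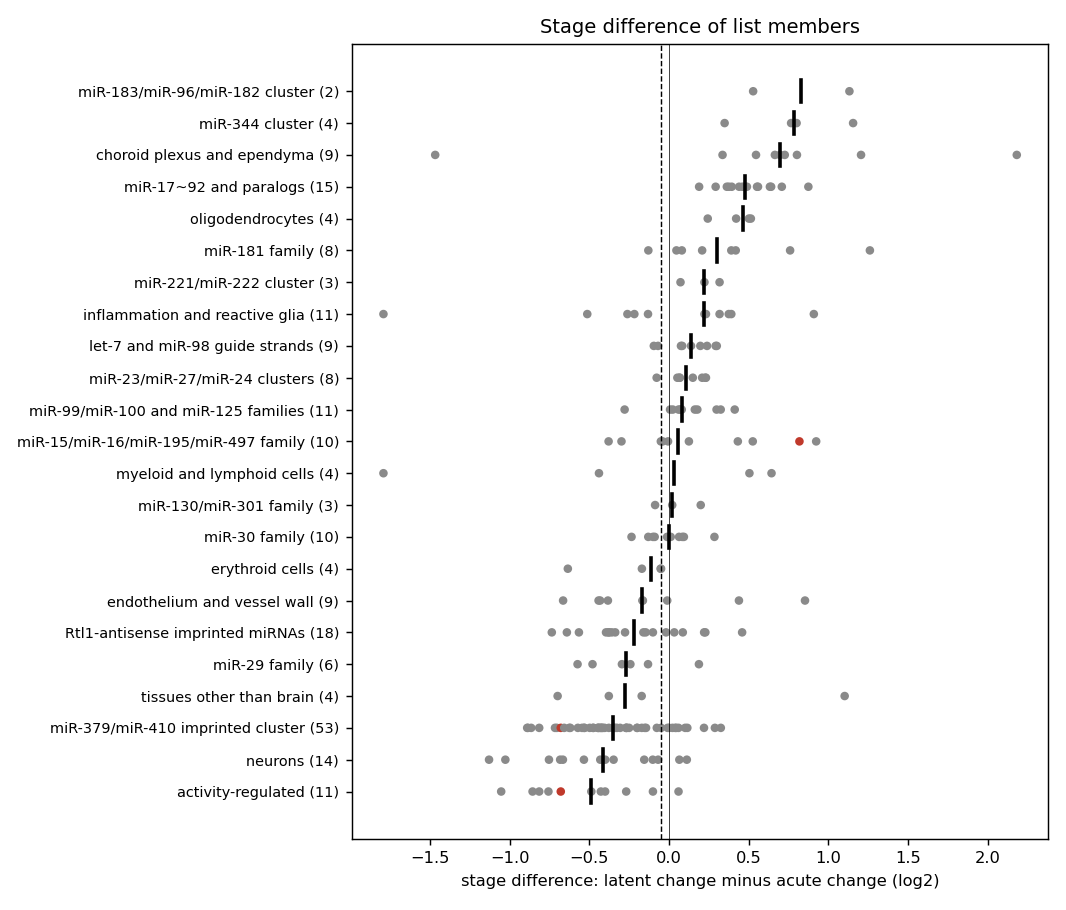
Stage difference (log2, latent change minus acute change) of each tested member of the 23 lists, 1 point per miRNA, with the list median as a black bar, called differences in red, the number of tested members in brackets and the median of all 380 miRNAs as a dashed line. Activity-regulated, neuron-enriched and miR-379/miR-410 miRNAs lie mostly below the dashed line, and miR-17~92, miR-344 and choroid plexus miRNAs mostly above it.

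miRNAs of the choroid plexus and ependyma had high values at 1 week in 2 libraries. The summed level of the 9 tested of 19 listed was 956 to 25769 CPM in latent SE (median 1290), 1140 to 1587 in latent controls, 1415 to 7823 in acute SE and 1187 to 2760 in acute controls, and none of the 9 was at 0 in any library. The highest sums were those of latent SE 5 (25769), latent SE 6 (13414) and acute SE 6 (7823). At 1 week 6 members were called higher, at 24 hours 1, and 8 of 9 had a positive stage difference (median 0.70). Over all 380 miRNAs these counts were 32, 15 and 168. miR-1298, hosted in the serotonin receptor gene Htr2c, held 12774 and 6313 CPM in latent SE 5 and 6 and 98.5 to 355 in the other latent SE libraries, with a latent change of 3.39 (adjusted p = 0.00177). Without the 3 highest libraries its latent change was -0.01, that of miR-204-5p went from 1.32 to -0.24 and that of miR-448-3p from 2.68 to -0.17. The median stage difference of the list was then -0.11. The ciliated-cell miRNAs miR-34b-3p, miR-34c-5p and miR-34c-3p rose at 1 week by 0.90, 0.91 and 0.98, and without those libraries had 0.49, 0.34 and 0.73 (adjusted p = 0.19, 0.382 and 0.0587). The acute call was miR-448-5p, with a change of 2.07 that was 0.25 within acute libraries 9 to 20. The part of tissue sampling in these changes was not tested.

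The marker groups of other cells had no called stage difference. Their counts stand against 168 positive stage differences among all 380 miRNAs (median -0.05). Oligodendrocyte miRNAs had a positive stage difference in 4 of 4 (median 0.46, range 0.24 to 0.51), led by miR-219a-2-3p at 0.51 (adjusted p = 0.39) and miR-338-5p at 0.50 (adjusted p = 0.351), and their summed level reached 23833 CPM in latent SE 4 against a latent SE median of 7574. The stage difference of the oligodendrocyte list within acute libraries 9 to 20 was positive in 3 of 4 (median 0.15), and its median acute change was 0.07 against -0.20 with all libraries. Vessel miRNAs had 2 of 9 positive (median -0.17), with miR-145-5p at -0.66 and miR-145-3p at -0.44 (adjusted p = 0.21 each) and miR-126a-3p at -0.38 (adjusted p = 0.26). Erythroid miRNAs had 0 of 4 positive (median -0.11), with no member below an unadjusted p of 0.05 at either stage. The vessel list had 4 of 9 positive (median -0.02) and the erythroid list 2 of 4 (median 0.0009) within acute libraries 9 to 20. Among miRNAs of other tissues, miR-375-3p was called higher at 1 week (1.22, adjusted p = 0.0493), and 23 of the fits without a single library ended that call. Without latent SE 4 its latent change was 0.52 (adjusted p = 0.411). miR-133a-3p had a stage difference of -0.70 (adjusted p = 0.21) and miR-206-3p of -0.38.

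The remaining families are given by their counts, against 168 positive stage differences among all 380 miRNAs (median -0.05). Several of them lay near that share. The miR-181 family had 7 of 8 positive stage differences (median 0.30), all 8 acute changes negative, and 1 call, miR-181a-2-3p, which rose by 0.74 at 1 week (adjusted p = 0.04) at 9.66 to 73.2 CPM in the latent libraries and lost the call in 9 of the fits without a single library. Within acute libraries 9 to 20 the family's median was 0.08. The miR-221/miR-222 cluster had 3 of 3 positive (median 0.22), let-7 and miR-98 guide strands 7 of 9 (median 0.14), the miR-23/miR-27/miR-24 clusters 7 of 8 (median 0.11) with miR-23a-3p (0.53, adjusted p = 0.0162) and miR-24-2-5p (0.51, adjusted p = 0.04) called higher at 1 week, and the miR-99/miR-100 and miR-125 families 10 of 11 (median 0.08). In acute libraries 9 to 20 the miR-221/miR-222 cluster had 1 of 3 positive (median -0.01) and the let-7 and miR-98 guide strands 3 of 9 (median -0.05), so both medians turned sign. The median acute change of the miR-221/miR-222 cluster was -0.44 with all libraries and -0.25 there, with no call. The call of miR-24-2-5p ended without latent control 9, 11 or 15 or latent SE 3, 17, 18 or 19. The miR-15/miR-16/miR-195/miR-497 family as a whole had 5 of 10 (median 0.06), the miR-30 family 5 of 10 (median -0.0004), the miR-130/miR-301 family 2 of 3 (median 0.02), the miR-29 family 1 of 6 (median -0.27) and the miR-183/miR-96/miR-182 cluster 2 of 2 (median 0.83, at 0.53 for miR-182 and 1.13 for miR-183-5p with adjusted p = 0.596 and 0.379). Of these, the miR-15/miR-16/miR-195/miR-497 family had 8 of 10 positive within acute libraries 9 to 20 (median 0.15) and the miR-183/miR-96/miR-182 cluster a median of 1.72. miR-127-3p of the Rtl1-antisense group fell at 1 week by 0.39 (adjusted p = 0.02) with a stage difference of -0.38 (adjusted p = 0.21). Its latent call ended without acute control 20, acute SE 11, latent control 7, 8 or 16, or latent SE 17 or 20, and also with TMM factors within each stage, with the filter on adult-onset libraries alone and with the stages fitted separately.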

How the data were processed

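Small RNA libraries (NEXTflex kit) were made from hippocampal total RNA. The authors deposited raw read counts per mature miRNA and a normalized signal, checked here to be those counts divided by 1 size factor per library; the submitters' notes name DESeq2 1.16.1. The study's methods, written for its chronic stage, trimmed adapters with Kraken and Cutadapt, kept reads of good quality over 85% of their length and counted them with seqBuster against miRBase allowing a mismatch, so reads of near-identical miRNAs could be assigned to either.

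Here the raw counts of 38 libraries and 380 miRNAs with over 500 reads in each file were scaled by TMM over all libraries and fitted in edgeR 4.0.16 (R 4.3.3) with 4 groups and no covariate. The stage difference was the contrast of the SE changes, tested by the quasi-likelihood F test with Benjamini-Hochberg adjustment over the 380 miRNAs, and called at an adjusted p under 0.05. Standard errors and 95% intervals were derived from the F statistic and are on the log2 scale, and CPM values are TMM-scaled with a prior count of 2 on the log2 scale. Alternatives were DESeq2 1.42.0, limma 3.58.1, other filters, scalings and sample sets, and each library left out. Acute SE libraries 5 and 7 were not analysed here. Named miRNAs were the called stage differences, up to 3 per list with the lowest stage p, and those called at both stages. Seed-mates, opposite arms, tissue markers, other called list members, miR-190b-5p and miR-339-5p were added after their values were seen. Members and lists were chosen with earlier results of these data known.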

Additional observations from a re-analysis of the deposited data

Results flagged for a closer look

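The 3 called stage differences, miR-15b-5p (0.82), miR-135a-3p (1.01) and miR-134-5p (-0.68, all log2), are listed here because their change after SE differed between the stages by the test of the difference itself. In addition, 45 of 292 groups of 9 or 10 libraries (15.4%), over 73 miRNAs, had a highest or lowest library far from the others by Dixon's criterion, which chance gives in about 1 of 20 groups; 15 of these were the 3 libraries that went against their labels. miRNAs share libraries, so the groups are not independent.

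In the library labelled acute SE 1 the values that stood apart, in CPM, were miR-150-5p (1962, high), miR-155-5p (3.44, low), miR-19a-3p (3.44, low), miR-20a-5p (143, low), miR-21-5p (4761, low) and miR-93-5p (380, low). In the library labelled acute control 8 the values that stood apart, in CPM, were miR-134-5p (434, high), miR-155-5p (93.6, high), miR-17-5p (294, high), miR-212-3p (946, high), miR-212-5p (614, high) and miR-219a-2-3p (1880, low). In the library labelled latent SE 1 the values that stood apart, in CPM, were miR-155-5p (7.02, low), miR-15b-3p (3.12, low) and miR-20a-5p (157, low).

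Of the other libraries, also in CPM, latent control 14 stood apart in miR-128-3p (97089, high), miR-132-3p (3053, high), miR-132-5p (1104, high), miR-133a-3p (128, high), miR-135b-5p (473, high), miR-23a-3p (3351, high), miR-34c-5p (95.6, low), miR-7a-5p (3927, low) and miR-7b (663, low). Acute control 15 stood apart in miR-145-3p (57.3, low), miR-145-5p (501, high), miR-190b-5p (21.2, low), miR-19a-3p (4.94, low), miR-19b-3p (43, low), miR-21-5p (3172, low) and miR-9a-5p (93634, low). Latent SE 4 stood apart in miR-135a-5p (420, low), miR-219a-2-3p (15869, high) and miR-338-5p (3746, high). Acute SE 6 stood apart in miR-34c-3p (82, high) and miR-34c-5p (1054, high).

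Single values stood apart for miR-127-3p in acute SE 10 (3647, low), miR-15b-3p in acute control 16 (2.83, low), miR-93-5p in acute control 17 (690, low), miR-375-3p in acute control 19 (8.08, low), miR-212-5p in acute SE 2 (1579, high), miR-182 in acute control 20 (88.9, high), miR-7a-5p in acute SE 4 (19864, high), miR-34c-3p in latent SE 5 (55.8, high) and miR-93-5p in latent control 8 (2008, high), in CPM. What sets these libraries apart was not tested.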

How the results depend on the processing

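The numbers of called values varied with the processing at each stage and for the stage difference. Against 3 stage calls (2 positive, 1 negative), 18 acute and 37 latent, DESeq2 gave 15 stage calls (8 positive, 7 negative), voom 6, TMM within each stage 2 (both positive), no filter on low counts 9, the filter on adult-onset libraries alone 4 (all positive), limma-trend 2 stage and 22 latent, stages fitted separately 9 stage (7 positive) and 11 acute, and all 8 groups of both onset ages in 1 fit 20, 37 and 56. Thinning each library to the shallowest gave 0, 7 and 21, with 15 positive and 26 negative stage differences at an unadjusted p under 0.05. Of the sets chosen after seeing the data, leaving out the 3 libraries that went against their labels gave 16 stage and 48 latent calls, acute libraries 9 to 20 only gave 0 stage and 7 acute calls, the same without latent library 1 gave 4, 7 and 51, and leaving out acute SE 6 and latent SE 5 and 6 gave 1 stage and 25 latent. Leaving out single libraries gave 0 to 14 stage calls, 10 to 29 acute and 25 to 48 latent. Stage calls were 0 without acute control 14, 17 or 19, latent control 12 or latent SE 19, and 14 without latent SE 1. The acute count was 10 without acute SE 4 and 29 without acute control 8. The cause of these shifts was not tested.

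Of 3011 fits of the 58 called values (acute, latent and stage difference, over all tested miRNAs), 2615 kept the call, 4 turned the sign and the others ended the call. The 4 were the miR-1298 latent log2 fold change (-0.0063), the miR-204-5p latent log2 fold change (-0.2353) and the miR-448-3p latent log2 fold change (-0.1681), each without acute SE 6 and latent SE 5 and 6, and the miR-17-1-3p latent log2 fold change (-0.0962) after thinning. No paired analysis was possible because the SE and control libraries of a stage share no number and the labels name no rat that would link the stages. Depth limited mainly the acute SE libraries, in which miR-135a-3p rested on 5 to 21 reads.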
